A study of Mus musculus with 10 samples.

Results

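10 genes that mark or maintain spermatogonial stem cells, the germ cells that renew themselves and feed spermatogenesis, were followed in testes that lack the RNA helicase MOV10. The genes were Gfra1, Ret, Zbtb16, Id4, Etv5, Nanos3, Lin28a, Sall4, Foxo1 and Eomes. They form a list of names, taken for their known place in these cells, with no threshold on counts. All 10 were among the 55421 genes of the count files.

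RNA-seq was made from testes of mice at postnatal day 21 (P21), with 3 wild type libraries (replicates 1, 2 and 3) and 3 Mov10-/- libraries (replicates 2, 3 and 4). Per the methods, each came from a pair of testes. The Mov10-/- mice carried a global deletion of exons that removes the first of the helicase domains and shifts the reading frame, made from a floxed allele with Actb-Cre, which acts in all tissues, on a mixed background of 129, C57BL/6 and FVB. The comparison is limited to mice that lived to P21. 4 CLIP-seq libraries, in which RNA crosslinked to MOV10 was recovered from wild type P21 testes, were used only to count reads on the 10 genes.

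At P21 the tubules hold Sertoli cells, spermatogonia, spermatocytes and the earliest spermatids, and stem cells are a small share of the germ cells. Sertoli cells secrete GDNF, which binds the co-receptor GFRA1 and signals through the receptor tyrosine kinase RET. In stem cells this signal sustains Etv5 and Id4, while ZBTB16 (PLZF), SALL4 and FOXO1 are nuclear factors of the wider undifferentiated population. NANOS3 and LIN28A are RNA-binding proteins of the same cells, and EOMES is a T-box factor found in a subset of the cells with GFRA1. Several of the genes are also used elsewhere in the testis, such as Etv5 in Sertoli cells and Id4 in spermatocytes.

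The upstream DNA of the members was read first, since Etv5 and Foxo1 encode factors with known DNA motifs. RefSeq promoters (GRCm38.p6, from 250 bases before to 50 after each start) covered 7 of the 10 genes in 8 windows, and not Ret, Zbtb16 or Sall4. Both strands were searched for the ETS core CCGGAAG, the forkhead motif GTAAACA, the T-box motif AGGTGTG and the E-box CANNTG, which helix-loop-helix factors bind and the ID proteins counter. The runs below show the forkhead match and an E-box of each gene that had one, read 5′ to 3′ on the gene's strand, with the motif in capitals.
Etv5, forkhead, chr16:22439735-22439764, minus strand, motif start at -183 from the RefSeq start: ctgaagacaggGTAAACAagaggtgatggg
Etv5, E-box, chr16:22439760-22439789, minus strand, motif start at -207: gatggggcggccCAGCTGgatttgcctgaa
Gfra1, E-box, chr19:58455471-58455500, minus strand, motif start at -90: ggctactcgctgCAGCTGgacaccggtcaa
Nanos3, E-box, chr8:84176683-84176712, minus strand, motif start at -148: ataccccctgcgCAGGTGtataggaagccc
Foxo1, E-box, chr3:52268132-52268161, plus strand, motif start at -193: gagactcagaaaCACTTGagaattacagaa

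The forkhead motif lay in 1 of the 8 windows, that of Etv5, and in 3.65% of all 32851 promoters. An E-box lay in 4 of the 8 windows (Etv5, Foxo1, Gfra1 and Nanos3) and in 72.3% of all promoters. Its form CAGCTG, which is a part of the E-box matches, lay in 2 windows (Etv5 and Gfra1) and in 16.3% of all. The ETS core, in 8.86% of all promoters, and the T-box motif, in 5.84%, were in 0 of the 8 windows. These are matches of letters and say nothing about binding. The members' windows were 47.3% (Eomes) to 74.0% (Etv5) G and C, against a median of 52.7% over all promoters.

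Reads on genes ran from 5083407 to 9230540 per RNA-seq library, so that 1 read stood for 0.108 to 0.197 CPM before scaling. The lowest was Mov10-/- replicate 3, in which 57.2% of all reads were not aligned and 28.3% lay on genes. The other RNA-seq libraries had 26.5 to 35.9% not aligned and 41.3 to 47.2% on genes. CPM gives reads relative to the library total, and the CPM values reported were scaled by TMM, which evens out libraries through the bulk of their genes. Mov10, the deleted gene, stood at 110 ± 11.9 CPM in wild type and 27.4 ± 1.38 CPM in Mov10-/- testes (SD, n = 3 each), a log2 fold change of -2.00 (SE 0.12, adjusted p = 0.00552, by the quasi-likelihood test of edgeR and Benjamini-Hochberg adjustment, as for every adjusted p below unless another tool is named). Mov10 was also the single gene called among 20240 tested, 0.00494% of them, where a call needs an adjusted p under 0.05 and a fold over 2. DESeq2 called 1039 (5.13%), of which 988 were lower in Mov10-/- testes. Of edgeR's other tests, the exact test called 1101 and the likelihood ratio test 1187, so that the number of calls depended on the test. Wild type replicate 2 stood apart, with 1144 CPM summed over 15 spermatid markers against 309 to 468 in the other wild type libraries and 129 to 310 in Mov10-/- libraries.

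No member differed between the genotypes past the test. Of the 9 members with enough reads to test, 0 were called by edgeR's quasi-likelihood test and 0 by DESeq2, edgeR's exact test, its likelihood ratio test or limma voom. At an unadjusted p under 0.05, 0 were higher (5.57% of all genes tested were) and 0 lower (11.9% of all genes). The ranges of the 2 genotypes overlapped for all 10 genes, while 11.9% of all genes tested were higher without overlap and 14.1% lower without overlap. 7 members had a log2 fold change above 0 and 2 below, from -0.21 (Id4) to 0.42 (Sall4), with a median of 0.18. The median over all genes tested was 0.03. In whole testes, fewer cells of a type and less RNA per cell cannot be told apart, and this holds for every value that follows.

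**Figure D1:**
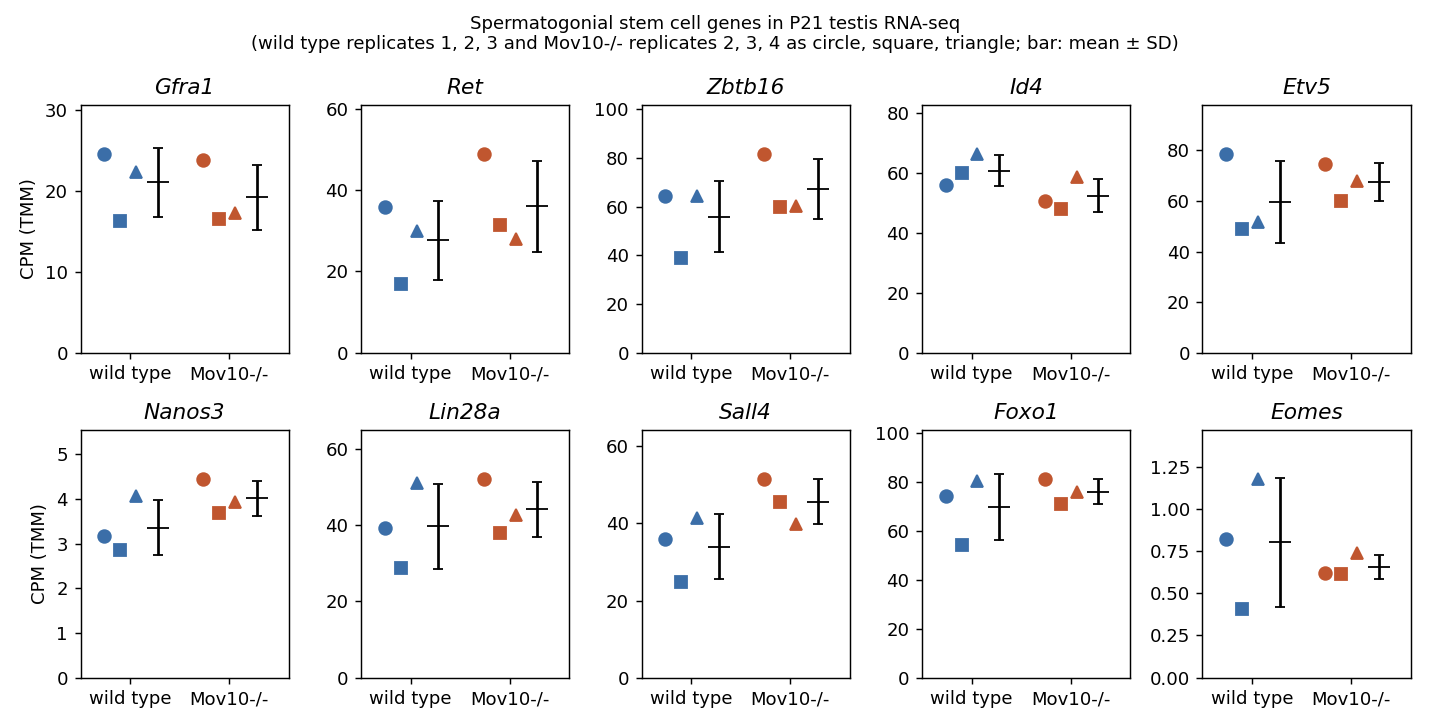
CPM (TMM scaled, linear axes from 0) of the 10 genes in each RNA-seq library, with wild type replicates 1, 2 and 3 in blue and Mov10-/- replicates 2, 3 and 4 in orange, and black bars for the mean ± SD of 3. The genotypes overlap in every panel, and wild type replicate 2 (blue square) is the lowest of the 6 libraries in 9 of 10 panels, Id4 being the exception.

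The GDNF receptor came first. Gfra1 (ENSMUSG00000025089, mm10 chr19:58235604-58455909, minus strand), whose promoter carries the CAGCTG shown above, encodes the part that binds GDNF. It stood at 24.5, 16.2 and 22.3 CPM in wild type replicates 1, 2 and 3 and at 23.8, 16.6 and 17.2 CPM in Mov10-/- replicates 2, 3 and 4, from 81 to 209 reads per library. 1 wild type and 2 Mov10-/- libraries lay between 16.2 and 17.2 CPM, and the remaining libraries of both genotypes at 22.3 CPM or above. The log2 fold change was -0.13 (SE 0.25, 95% interval -0.71 to 0.45, adjusted p = 0.812). An antisense gene, Gm16277, shares 416 bases of exon with Gfra1 and had 16, 52 and 6 reads in wild type and 0, 5 and 1 in Mov10-/- libraries. Without strand in the counting, reads in the shared bases cannot be assigned to either gene, and the 80 reads of Gm16277 equal 8.41% of the 951 of Gfra1. The same limit holds for Sall4 (526 shared bases), Foxo1 (674), Lin28a (234), Id4 and Eomes, which also share exon with genes on the opposite strand. The reads of each such gene equalled 0.0293 to 0.714% of the member's, and 5.71% for Eomes.

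Ret (ENSMUSG00000030110, chr6:118151745-118197718, minus strand), which encodes the kinase that carries the signal, stood at 35.9, 16.9 and 30.04 CPM in wild type and at 48.8, 31.5 and 27.9 CPM in Mov10-/- testes. 1 Mov10-/- library was above all wild type libraries and the other 2 fell inside their range. With a log2 fold change of 0.39 (SE 0.32, adjusted p = 0.567), Ret had the widest interval of the members, -0.36 to 1.13, or 0.782 to 2.18 on the fold scale. It was the only member tested whose interval reached a 2-fold difference.

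The receptor pair had fold changes of opposite sign, neither of them past the test. Per exonic length, the ratio of Gfra1 to Ret was 0.844, 1.19 and 0.919 in wild type and 0.603, 0.650 and 0.762 in Mov10-/- libraries, without overlap. Gfra1 also stood lower without overlap relative to Zbtb16, Nanos3 and Sall4, and Id4 relative to Nanos3 and Sall4. Relative to Sall4, Lin28a was lower and, in turn, Sall4 was higher relative to Foxo1. These are 8 of the 36 ratios between members. Ratios of any gene tested to a member were without overlap in 18.3% of cases, which puts the 8 of 36 near that background. None of the ratios was given a test.

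Zbtb16 (ENSMUSG00000066687, chr9:48654297-48836222, minus strand) encodes PLZF, a zinc finger repressor needed for stem cells to last. Its CPM was 64.2, 39.1 and 64.3 in wild type and 81.5, 59.9 and 60.2 in Mov10-/- testes. Replicate 2 of wild type was the lowest and replicate 2 of Mov10-/- the highest, and the other libraries of both genotypes lay close together. This gave a log2 fold change of 0.27 (SE 0.22, 95% interval -0.24 to 0.77, adjusted p = 0.563).

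Sall4 (ENSMUSG00000027547, chr2:168748332-168767943, minus strand), a zinc finger factor that binds PLZF, had the smallest p of the members. Its CPM was 35.9, 24.8 and 41.4 in wild type and 51.5, 45.6 and 39.9 in Mov10-/- testes. 2 of 3 Mov10-/- libraries were above all wild type libraries and the lowest was inside their range. The mean was 34.0 ± 8.44 CPM against 45.7 ± 5.78 CPM (SD, n = 3 each). The log2 fold change of 0.42 (SE 0.21) had an unadjusted p of 0.0805 and an adjusted p of 0.347 in edgeR's quasi-likelihood test, and an adjusted p of 0.345 in DESeq2. Its interval on the fold scale was 0.956 to 1.88. Leaving out wild type replicate 2 took the log2 fold change to 0.24.

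Id4 (ENSMUSG00000021379, chr13:48261228-48266026, plus strand), an inhibitor of helix-loop-helix factors whose protein marks the cells richest in stem cell activity, differed from the others in pattern. It stood at 56.0, 60.0 and 66.3 CPM in wild type and at 50.8, 47.9 and 58.6 CPM in Mov10-/- testes. 2 of 3 Mov10-/- libraries were below all wild type libraries, and wild type replicate 2 was not low, at 98.1% of the mean of replicates 1 and 3. The log2 fold change was -0.21 (SE 0.13, 95% interval -0.51 to 0.09, unadjusted p = 0.142, adjusted p = 0.442).

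Etv5 (ENSMUSG00000013089, chr16:22381309-22439719, minus strand), an ETS factor induced by GDNF, had the forkhead match and an E-box in its promoter. Its CPM was 78.4, 48.8 and 51.5 in wild type and 74.7, 59.9 and 67.7 in Mov10-/- testes, so that the highest and the lowest library were both wild type. Etv5 had a log2 fold change of 0.18 (SE 0.20, 95% interval -0.27 to 0.63, adjusted p = 0.663). A processed pseudogene, Gm4798, is 98.6% identical to the Etv5 transcript over 1700 bases and had 14 to 23 reads per library. Reads that fit both are left out by the counting, which makes the level of Etv5 uncertain.

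Foxo1 (ENSMUSG00000044167, chr3:52268336-52353221, plus strand) encodes the forkhead factor that PI3K and AKT signalling keeps out of the nucleus. It stood at 74.4, 54.4 and 80.5 CPM in wild type and 81.1, 71.2 and 75.8 CPM in Mov10-/- testes, with all but wild type replicate 2 above 71. Its log2 fold change of 0.12 (SE 0.16, 95% interval -0.24 to 0.49, adjusted p = 0.709) and that of Id4 were the only ones whose interval stayed within 1.5-fold either way.

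Eomes (ENSMUSG00000032446, chr9:118478212-118486132, plus strand) was near the limit of detection, with 7, 3 and 11 reads in wild type and 5, 3 and 6 in Mov10-/- libraries. That is 0.409 to 1.18 CPM in wild type and 0.614 to 0.737 CPM in Mov10-/- testes. It did not reach the minimum of 1 CPM in at least 3 libraries and was not tested.

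Of the RNA-binding members, Nanos3 (ENSMUSG00000056155, chr8:84173731-84185217, minus strand), a translational regulator of the NANOS family, was the sparsest gene tested. Its 18 to 38 reads per library gave 3.17, 2.86 and 4.06 CPM in wild type and 4.45, 3.68 and 3.93 CPM in Mov10-/- testes. Mov10-/- replicate 2 alone was above the wild type range. Nanos3 had a log2 fold change of 0.26 (SE 0.31, 95% interval -0.46 to 0.97, adjusted p = 0.695).

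Lin28a (ENSMUSG00000050966, chr4:134003330-134018841, minus strand), which blocks maturation of let-7 miRNAs, stood at 39.3, 28.8 and 51.0 CPM in wild type and at 52.0, 37.8 and 42.5 CPM in Mov10-/- testes. The highest libraries of the 2 genotypes were nearly equal, and the lowest was wild type replicate 2. Its log2 fold change was 0.15 (SE 0.23, 95% interval -0.37 to 0.68, adjusted p = 0.754).

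All 9 intervals held 0, and 8 of the 9 lay within a 2-fold difference in either direction. A difference of 2-fold or more was thus outside the interval of each tested member except Ret, and one of 1.5-fold or more was outside the intervals of Id4 and Foxo1 only. A p that misses the threshold does not show that the genotypes had the same level.

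**Figure D2:**
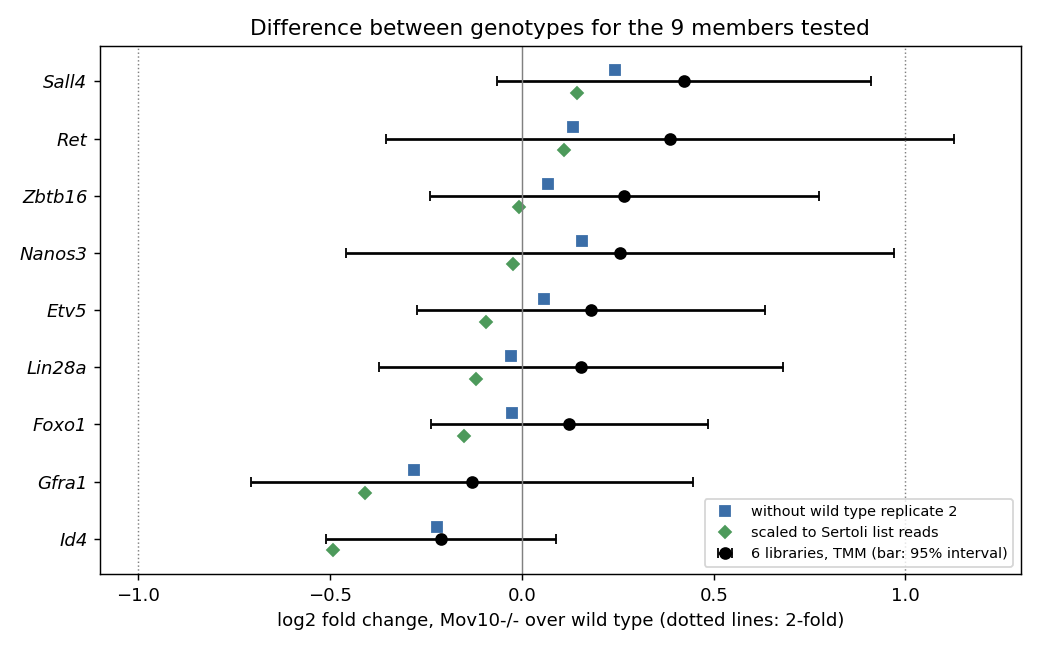
Log2 fold change (Mov10-/- over wild type) of the 9 genes tested, with the 95% interval as a black bar, the value without wild type replicate 2 as a blue square and the value scaled to the reads of the Sertoli cell list as a green diamond. Every bar crosses 0 and only that of Ret passes the dotted line at 2-fold, and the blue squares lie left of the black points, with those of Lin28a and Foxo1 just below 0.

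Wild type replicate 2 was the lowest of the 6 libraries for 9 of 10 members, whereas 34.7% of all genes tested were lowest there. It held 51.3% of the mean of wild type replicates 1 and 3 for Ret, 60.9% for Zbtb16, 63.7% for Lin28a and 64.2% for Sall4, against 98.1% for Id4. Relative to each gene's mean over the 6 libraries, the median log2 level of the 9 members was -0.41 in wild type replicate 2, 0.04 and 0.15 in the other wild type libraries and -0.02 to 0.28 in Mov10-/- libraries. Mov10-/- replicate 2 was the highest library for 6 of 10 members (26.6% of all genes tested were highest there).

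Without wild type replicate 2, 5 members had a log2 fold change above 0 and 4 below, and the median went from 0.18 to 0.06. Ret then stood at 0.13, Zbtb16 at 0.07, Etv5 at 0.06 and Nanos3 at 0.16. Lin28a and Foxo1 changed sign, to -0.03 each, while Gfra1 was at -0.28 and Id4 at -0.22. The smallest adjusted p was 0.694, for Id4. Without Mov10-/- replicate 2, the median was 0.10, with Ret at 0.11, Zbtb16 at 0.11 and Gfra1 at -0.31. With each of the 6 libraries left out in turn, Ret ranged from 0.11 to 0.60, Sall4 from 0.24 to 0.59, Zbtb16 from 0.07 to 0.38 and Id4 from -0.30 to -0.14. The spermatid markers of wild type replicate 2 were the highest and its Sertoli cell markers the lowest, at 871 CPM against 1012 to 1249 elsewhere. The part of these cell types in the members' values was not tested.

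**Figure D3:**
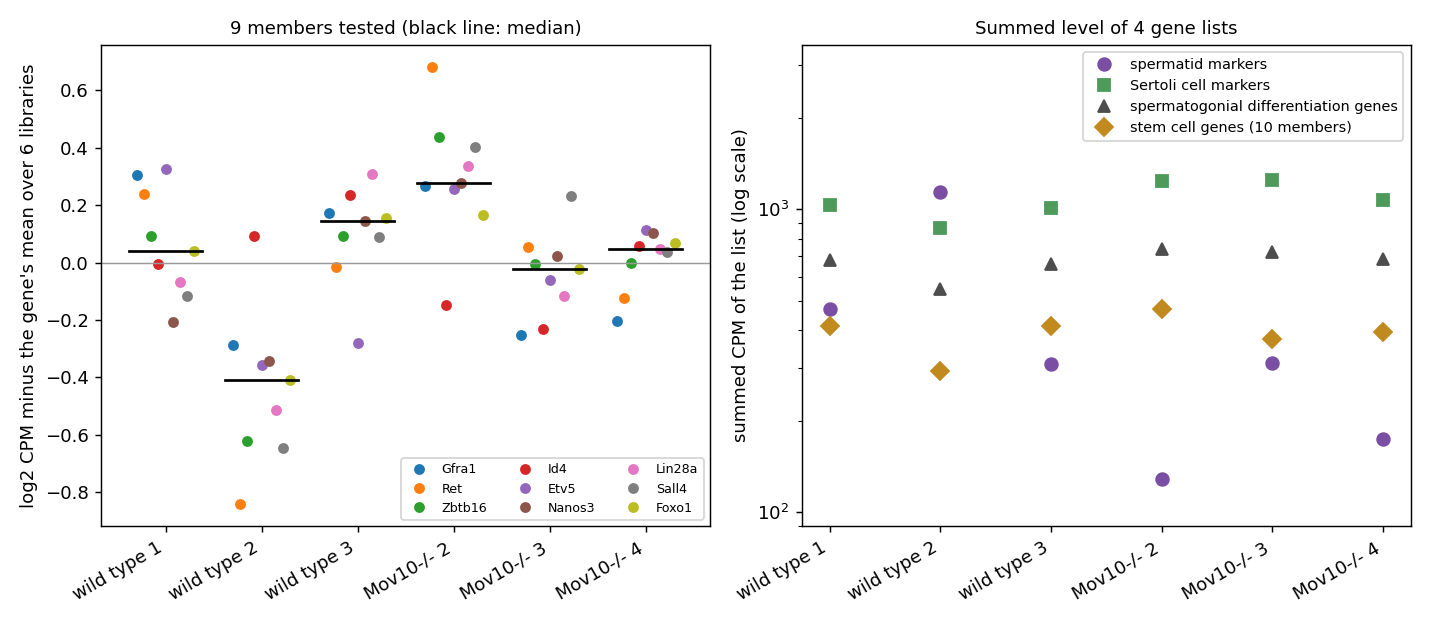
Left, log2 CPM of the 9 genes tested minus each gene's mean over the 6 libraries, with the median as a black line; right, CPM summed over 4 gene lists on a log axis. The medians lie between -0.02 and 0.28 except in wild type replicate 2, at -0.41, where the spermatid sum peaks at 1144 CPM.

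Levels between genes were compared per kilobase of exon (RPKM). In wild type testes the order was Id4 (15.8 ± 1.34), Etv5 (14.5 ± 3.99), Zbtb16 (10.6 ± 2.75), Lin28a (9.93 ± 2.78), Foxo1 (8.05 ± 1.58), Sall4 (6.15 ± 1.52), Ret (4.08 ± 1.44), Gfra1 (3.84 ± 0.784), Nanos3 (3.64 ± 0.676) and Eomes (0.193 ± 0.0924 RPKM, SD, n = 3 each). Neighbours in this order overlapped in range except Nanos3 and Eomes. In Mov10-/- testes Etv5 (16.4 ± 1.80) came before Id4 (13.6 ± 1.44), and Nanos3 (4.35 ± 0.421) before Gfra1 (3.51 ± 0.735 RPKM). The neighbours Lin28a and Foxo1, Sall4 and Ret, and Gfra1 and Eomes did not overlap there. The 2 swaps were between neighbours whose ranges overlapped in both genotypes.

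**Figure D4:**
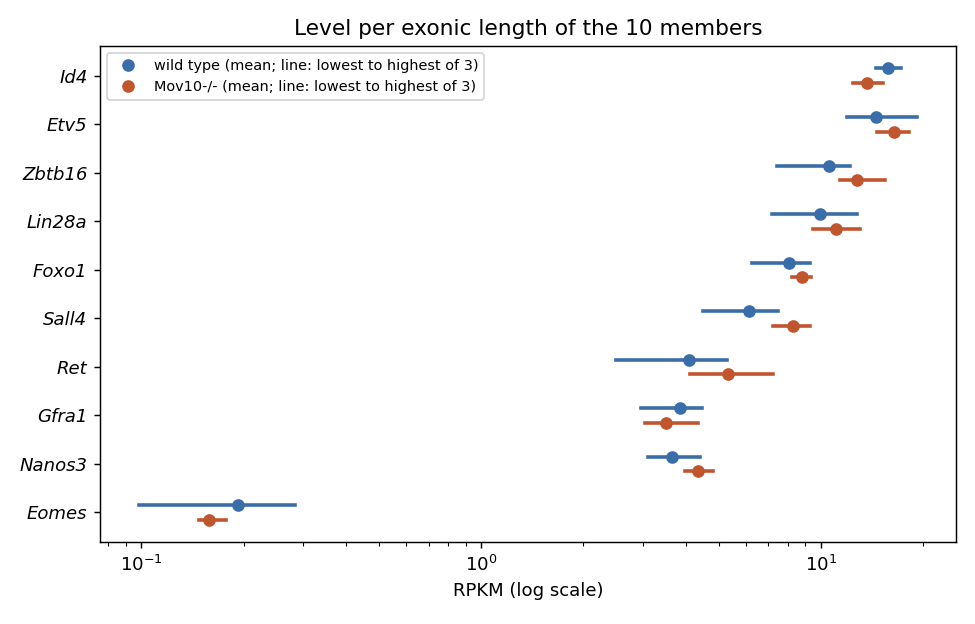
RPKM (log axis) of the 10 genes, with the mean as a point and the lowest to highest of 3 libraries as a line, wild type in blue and Mov10-/- in orange. Id4 and Etv5 lead in both genotypes at 13.6 to 16.4 RPKM on average, and Eomes lies far to the left at 0.158 to 0.193 RPKM.

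The pathway around the receptor pair was read from lists of other genes, none of them holding a member. None of their genes was called by the quasi-likelihood test or by DESeq2. At an unadjusted p under 0.05, 5.57% of all genes tested were higher and 11.9% lower, for comparison with the counts of each list. Some genes, such as Gdnf, Nanos2 and Foxo6, are in more than 1 list, so that the counts of the lists are not independent. Of 16 tested genes of GDNF family signalling, 1 was lower and 2 higher at an unadjusted p under 0.05, with a median log2 fold change of 0.11. Gdnf itself, the ligand, stood at 9.14 ± 4.73 CPM in wild type and 8.10 ± 1.61 CPM in Mov10-/- testes (log2 fold change -0.17, adjusted p = 0.847). Nrtn, a related ligand, was at 0.469 to 0.855 CPM in wild type and 1.35 to 2.05 CPM in Mov10-/- testes, without overlap, but at 4 to 15 reads per library (log2 fold change 1.35, adjusted p = 0.178). Gfra2, the co-receptor for neurturin, was at 38.2 CPM in wild type replicate 2 and at 7.77 to 14.8 CPM in the other 5 libraries (log2 fold change -1.27, adjusted p = 0.247).

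Genes that respond to GDNF, of which 7 of 9 were tested, had a median of -0.02, with 2 lower and 0 higher at an unadjusted p under 0.05. Bcl6b, a repressor that Etv5 works beside in stem cells, was at 19.5 ± 2.40 CPM in wild type and 12.9 ± 1.29 CPM in Mov10-/- testes (log2 fold change -0.60, SE 0.22, adjusted p = 0.222), lower without overlap. The other, Egr3, ranged from 3.85 to 27.5 CPM in wild type, with the top in replicate 2 (log2 fold change -1.96, adjusted p = 0.247). Nanos2, an RNA-binding partner of Nanos3 in function, stood at 6 to 16 reads per library (1.40 ± 0.394 against 1.27 ± 0.436 CPM, adjusted p = 0.884).

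Other undifferentiated spermatogonial genes (26 of 27 tested) had a median of 0.27, with 0 lower and 2 higher at an unadjusted p under 0.05. Those were Adgra3, also called Gpr125, with 119 ± 15.2 against 147 ± 8.001 CPM (adjusted p = 0.245), and Egr4 with 4.88 ± 2.54 against 10.1 ± 2.34 CPM (adjusted p = 0.257). All 12 genes of spermatogonial differentiation were tested, with a median of 0.22 and 1 higher at an unadjusted p under 0.05. That gene was Stra8, the retinoic acid target needed for meiosis, at 48.3 ± 6.76 CPM in wild type and 62.7 ± 5.05 CPM in Mov10-/- testes (adjusted p = 0.239). Kit, the receptor that marks differentiating spermatogonia, had 85.5 ± 12.4 and 86.5 ± 9.62 CPM (log2 fold change 0.02, adjusted p = 0.961).

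Relatives of the members were followed as well, since a related gene may share a role. In the list of paralogs and partners, 25 of 26 genes were tested, 0 were lower and 3 higher at an unadjusted p under 0.05, and the median was 0.08. Id1, an Id4 paralog, was at 5.18 to 8.87 CPM in wild type and 11.1 to 21.1 CPM in Mov10-/- testes, without overlap (log2 fold change 1.12, SE 0.36, adjusted p = 0.184). Id2 had a log2 fold change of 0.33 (adjusted p = 0.506) and Id3 of 0.75 (adjusted p = 0.3002). Tcf3, an E protein that ID proteins bind, was at 73.7 ± 15.7 against 109 ± 9.22 CPM, without overlap (log2 fold change 0.56, adjusted p = 0.164, and 0.0327 in DESeq2 at a fold under 2).

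Among the remaining paralogs, Etv4 stood at a log2 fold change of 0.03, Lin28b at 0.08, Foxo3 at 0.27 and Foxo4 at 0.29 (adjusted p of 0.965, 0.755, 0.328 and 0.480). The list of the PI3K, mTOR and FOXO pathway, which includes the Foxo1 paralogs Foxo3, Foxo4 and Foxo6, had 17 genes tested. Of these, 2 were higher and 0 lower at an unadjusted p under 0.05, and the median was 0.07. The 2 were Akt1 (97.1 ± 10.3 against 120 ± 10.4 CPM, adjusted p = 0.245) and Foxo6 (16.2 ± 4.66 against 25.3 ± 3.07 CPM, adjusted p = 0.261). Foxo6 was also among the higher genes counted in the list of paralogs and partners. Niche factors and receptors (18 tested) had a median of 0.28, with 4 higher and 0 lower at an unadjusted p under 0.05. Wnt6, a ligand made in Sertoli cells, was at 22.1 ± 5.17 CPM in wild type and 39.9 ± 1.55 CPM in Mov10-/- testes (log2 fold change 0.85, adjusted p = 0.150, and 0.00495 in DESeq2 at a fold under 2).

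Markers of the other cells of the testis were counted beside the members. Over all genes tested, 5.57% were higher and 11.9% lower at an unadjusted p under 0.05. Without overlap, 11.9% of all genes were higher and 14.1% lower. Of 14 spermatid markers tested, 12 were lower and 0 higher at an unadjusted p under 0.05 and 7 were lower without overlap, with a median log2 fold change of -2.35. 0 of them were called by edgeR's quasi-likelihood test and 9 by DESeq2, all lower. The spermatid sum was 309 to 1144 CPM in wild type, with the top in replicate 2, and 129 to 310 CPM in Mov10-/- testes, with overlap. Spermatocyte markers (14 tested) had a median of 0.08 and 0 at an unadjusted p under 0.05 in either direction. Sertoli cell markers (12 of 14 tested) had a median of 0.31 and 4 higher, and their sum was 871 to 1033 CPM in wild type and 1077 to 1249 CPM in Mov10-/- testes, without overlap. Of the 2 Sertoli cell markers not tested, Rhox8 had 0 reads in all libraries and Rhox5 had 1 read in 1 library. Why these 2 genes had almost no reads was not tested. Leydig cell (7 tested), peritubular myoid (6), endothelial (7) and macrophage (8) markers had medians of 0.23, 0.33, 0.19 and 0.25, with 0, 1, 1 and 0 higher and 0 lower.

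The sum over the 10 members was 413, 292 and 413 CPM in wild type and 469, 375 and 395 CPM in Mov10-/- testes, with overlap. Per 1000 CPM of the Sertoli cell list, all 10 members also overlapped between genotypes, with ratios of Mov10-/- to wild type from 0.690 (Eomes) to 1.11 (Sall4). On that scale Id4 was at 54.3, 68.8 and 65.5 in wild type and 41.0, 38.3 and 54.4 in Mov10-/- libraries. When the reads of the Sertoli cell list were used as the library size, the median over all genes tested moved to -0.25. The members' median then was -0.09, and Zbtb16, Etv5, Nanos3, Lin28a and Foxo1 changed sign. Id4 then had a log2 fold change of -0.49 with an unadjusted p of 0.0234 and an adjusted p of 0.158.

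MOV10 CLIP-seq reads on the members were almost absent. Zbtb16 had 1 read in replicate 1 and 1 in replicate 5, and the other 9 members had 0 reads in all 4 libraries. With 3404 to 4934 reads on genes per library, a count of 0 allowed up to 608 to 881 CPM, for counting error only. That limit was above the RNA-seq level of every member, so that binding in proportion to these levels was not detectable from so few reads. The CLIP-seq libraries held 9468912 to 15182658 reads each, of which 99.5 to 99.6% were not aligned. Reads on genes were 0.0260 to 0.0521% of all reads. Why so few reads aligned was not tested. CLIP-seq replicates 1, 2 and 3 differed by less than the sampling noise and count as 1 sample, so that these 4 libraries stand for 2 samples.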

How the data were processed

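For 6 RNA-seq and 4 CLIP-seq libraries the authors deposited unnormalized read counts for each Ensembl gene. The RNA-seq libraries were made with a stranded kit and counted by STAR alignment to mm10 and htseq-count on an Ensembl annotation, and the methods refer to earlier work for CLIP-seq. Versions of STAR and htseq-count, and whether the counting used strand, are not given in the sources used here. Lines for reads outside genes, ambiguous, not unique or not aligned were left out of library sizes. Genes above 1 CPM in at least 3 of 6 libraries were tested with edgeR 4.0.16 in R 4.3.3 (TMM, quasi-likelihood test, Benjamini-Hochberg adjustment), with a call at an adjusted p under 0.05 and a fold over 2. The SE is the log2 fold change divided by the root of F, and the 95% interval uses the moderated degrees of freedom. The script was tested on simulated data.

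Alternatives were DESeq2 1.42.0, edgeR's exact and likelihood ratio tests, limma 3.58.1 (voom), other scalings and filters, a replicate block, and leaving out each replicate. The exonic lengths, coordinates and overlapping genes came from GENCODE annotation of mm10, which held 55240 of the 55421 genes. Copies were sought at 90% identity or more over at least 200 bases. In every list other than the members, the genes eligible for naming were the 2 with the smallest p, the 2 with the highest mean CPM and 11 set by name. The members and lists were chosen with earlier results of these data known. Gm16277, Gm4798, Rhox5 and Rhox8 fall outside that rule and were named after their values were seen.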

Additional observations from a re-analysis of the deposited data

How the results depend on the processing

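Members called stayed at 0 under all 17 alternatives and without the fold minimum. Over all genes, calls were 1 in the quasi-likelihood test used above and 1039 with DESeq2. The exact test gave 1101 and the likelihood ratio test 1187. Calls were 2 with voom, 6 with library totals only and 10 without a filter on low counts. Without wild type replicate 1 they were 2, and without wild type replicate 3 or Mov10-/- replicate 3 or 4 they were 0. With the Sertoli list reads as library size, members lower at an unadjusted p under 0.05 went from 0 to 1 (Id4) and the median log2 fold change of the members to -0.0939, against -0.25 over all genes. Zbtb16 then was at -0.0079, Etv5 at -0.0939, Nanos3 at -0.0226, Lin28a at -0.12 and Foxo1 at -0.15. With each replicate left out in turn, members higher at an unadjusted p under 0.05 numbered 0 to 1, namely Etv5 without wild type replicate 1 and Sall4 without wild type replicate 3 (smallest adjusted p of 0.236 and 0.232). The members' median ranged from 0.06 to 0.38 there, Lin28a from -0.0292 to 0.38 and Foxo1 from -0.0252 to 0.24, both below 0 without wild type replicate 2. The cause was not tested. For the counts at an unadjusted p under 0.05, the share of all genes tested was not taken under these alternatives.

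Only numbers 2 and 3 occur in both genotypes, and libraries of the same number did not deviate together (correlation across 20240 genes of -0.45 for number 2 and -0.34 for number 3, genes not being independent replicates). The replicate block called 181 genes over all genes and 0 members, with Gfra1 at a log2 fold change of 0.0641 and a smallest member adjusted p of 0.815 (Ret). Depth limits Eomes and Nanos3, and the small share of reads on genes limits every CLIP-seq value.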
